A study of Mus musculus with 5 samples.

Results

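Cdkn1a, Cdkn1b, Cdkn2a and Cdkn2c encode 4 inhibitors of cyclin-dependent kinases (CDKs), and their levels are described here in single mouse CD4 T cells. They are 4 of the 11924 genes in the count tables and were taken by name, not by a threshold on measured values; 4 further inhibitor genes serve as comparison. The study sequenced SMARTA cells, C57BL/6 CD4 T cells with a transgenic receptor specific for a viral peptide, sorted as CD4+CD45.1+ cells and run on the 10x 3′ platform, with 1 library per group. The toxin-plus-antibody library came from tumor-side lymph nodes of mice labelled as depleted of regulatory T cells (Tregs) with diphtheria toxin on days 0 and 2 and given anti-CTLA4 antibody on days 0, 2 and 5. The toxin library came from mice with the depletion alone, the antibody library from mice with the antibody alone, and the untreated library from tumor-bearing mice whose treatment label is none. The series text and protocol name an isotype antibody and PBS for mice without the antibody or the toxin. All 5 libraries carry the genotype label C57BL/6, which names no allele for a toxin receptor, and the labels do not say how many animals went into a library. These 4 libraries were sorted from inguinal nodes on day 8 after tumor injection. The naive library, also with treatment none, held SMARTA cells from spleen, so it differs from the untreated library in organ as well as in tumor. The labels name different tumor lines for the injection, and which one was used is not settled by them. CTLA4 is a receptor that restrains T cell activation and is abundant on Tregs, and the transcription factor Foxp3 defines Tregs.

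CDKs, bound to cyclins, drive a cell from rest into DNA synthesis and division, and CDK inhibitors hold them back. The Cip/Kip proteins p21 (from Cdkn1a) and p27 (from Cdkn1b) bind whole cyclin-CDK complexes: p21 is a target of the tumor suppressor p53, and p27 is abundant in resting T cells and is degraded after the T cell receptor and cytokines are engaged. The Ink4 proteins p18Ink4c (from Cdkn2c) and p16Ink4a (from Cdkn2a) bind CDK4 and CDK6 and keep D-type cyclins from activating them, which leaves the retinoblastoma proteins able to restrain E2F factors. Cdkn2a also encodes p19Arf from another first exon and reading frame, and p19Arf stabilises p53 by binding Mdm2.

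In GRCm38 with GENCODE M21, Cdkn1a lies on the plus strand at chr17:29090976-29100727, Cdkn1b on the plus strand at chr6:134920401-134925513, and Cdkn2a and Cdkn2c on the minus strand at chr4:89274471-89294653 and chr4:109660876-109667189. The only other gene annotated over any of them is AC167363.2, a minus-strand entry inside Cdkn1a that the count tables do not list. In the last 300 bases of their transcripts, where 3′ reads fall, 0% of the 31-base words of the 4 genes occur in another gene. The 2 Cdkn2a transcripts share 200 of their 270 such words, so the Cdkn2a row sums p16Ink4a and p19Arf RNA. The 250 bases before a start of each gene, 1 window per gene, are shown because E2F factors and p53 are known regulators of members of the family, and the windows were searched for their motifs. They are from RefSeq on GRCm38.p6, at chr4:89294620-89294869 for the p19Arf start of Cdkn2a, chr4:109666757-109667006 for Cdkn2c, chr17:29090729-29090978 for the upstream start of Cdkn1a and chr6:134920151-134920400 for Cdkn1b, and capitals mark a matched motif.
Cdkn2a p19Arf start: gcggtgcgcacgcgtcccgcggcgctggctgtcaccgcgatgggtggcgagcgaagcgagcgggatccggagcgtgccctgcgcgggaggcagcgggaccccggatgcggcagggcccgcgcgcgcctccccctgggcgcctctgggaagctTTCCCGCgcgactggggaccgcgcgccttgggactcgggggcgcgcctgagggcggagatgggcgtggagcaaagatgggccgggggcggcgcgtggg
Cdkn2c: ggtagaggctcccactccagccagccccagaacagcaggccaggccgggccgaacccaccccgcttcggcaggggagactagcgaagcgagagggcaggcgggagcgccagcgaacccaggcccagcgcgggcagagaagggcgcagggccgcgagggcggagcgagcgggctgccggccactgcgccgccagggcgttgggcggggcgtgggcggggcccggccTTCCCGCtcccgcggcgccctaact
Cdkn1a upstream start: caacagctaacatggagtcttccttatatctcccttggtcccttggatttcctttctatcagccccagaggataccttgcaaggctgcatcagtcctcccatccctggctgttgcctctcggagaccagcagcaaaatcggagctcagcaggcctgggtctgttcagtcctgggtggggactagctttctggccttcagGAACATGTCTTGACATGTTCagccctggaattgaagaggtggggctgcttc
Cdkn1b: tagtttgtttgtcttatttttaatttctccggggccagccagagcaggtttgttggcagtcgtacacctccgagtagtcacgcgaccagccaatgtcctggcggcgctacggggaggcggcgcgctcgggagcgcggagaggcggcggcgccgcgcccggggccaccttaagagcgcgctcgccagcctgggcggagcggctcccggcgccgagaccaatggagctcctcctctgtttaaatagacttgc
Searched on both strands were the E2F word TTCCCGC and its close forms, the word TTGGCGC, the word TTCGCGC and the word TTGCCGC. Of these, TTCCCGC stood 98 to 92 bases before the p19Arf start and 25 to 19 bases before the Cdkn2c start. An E2F word was present in 2591 of 32851 promoter windows of this length, or 7.89%. The p53 consensus, searched over its 20 bases with at most 1 mismatch and no spacer, matched once before the upstream Cdkn1a start, 51 to 32 bases away and with 1 mismatch. It matched in 25 of the 32851 windows, or 0.0761%. The Cdkn1b window, the p16Ink4a window at chr4:89282193-89282442, the second Cdkn2c window at chr4:109665373-109665622 and the second Cdkn1a window at chr17:29093519-29093768 held neither motif.

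The libraries held between 1099 cells (untreated) and 7955 cells (naive), 20149 in all, with 3825958 to 27967273 unique molecular identifiers (UMIs, each a counted RNA molecule) and a median of 1683 to 5208.5 UMIs per cell. Pairs of libraries shared 0 to 10 cell barcodes. With 1 library per group no difference between groups could be tested, and all 95% intervals cover counting error only. Of 10 T cell markers looked for, 3 were in the tables (Cd4, Cd5 and Cd28), and all 3 were detected in every library. Although 2 of the libraries are labelled Treg-depleted, a Foxp3 UMI was found in 38.0% of cells of the toxin-plus-antibody library and 58.7% of the toxin library, and in 1.18%, 1.46% and 0.905% of cells of the antibody, untreated and naive libraries. In the annotation 4 genes overlap Foxp3, 3 of them in the tables. Of the 4, only Flicr lies on the strand of Foxp3, and it covers the start of Foxp3, not its 3′ end. Whether Foxp3 reads were split between rows was not tested. All 7 Treg markers listed were detected in each library. Their summed level was 4570 and 4060 CPM (the UMI count scaled to the library's total) in the toxin-plus-antibody and toxin libraries. It was 762, 1070 and 260.2 CPM in the antibody, untreated and naive libraries. The sum does not measure Treg content, because Ikzf2 alone stood at 408 and 615 CPM in the antibody and untreated libraries. It was found there in 68.4% and 57.4% of cells. Foxp3 itself stood at 348, 379, 4.25, 7.84 and 8.21 CPM in the toxin-plus-antibody, toxin, antibody, untreated and naive libraries. The 6 plasma cell markers summed to 2991, 4918, 632, 330.4 and 728 CPM in the same order. Ratios of the 4 members between libraries and between cycling classes that rest on the toxin libraries are therefore given with and without Foxp3 cells. Counts of genes past a fold, gene lists and levels of other genes were not recomputed without Foxp3 cells. The part of Foxp3 cells in those values was not tested.

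Cdkn1a and Cdkn2a RNA was found mainly in the 2 toxin libraries, Cdkn2c was lowest in the naive library and highest in the toxin library, and Cdkn1b was highest in the naive library. Cdkn1b had 3557 UMIs, or 211 CPM (204 to 218), in the toxin-plus-antibody library, 2463 UMIs, or 152 CPM (147 to 159), in the toxin library, 4652 UMIs, or 166 CPM (162 to 171), in the antibody library, 920 UMIs, or 240.5 CPM (225 to 257), in the untreated library, and 5999 UMIs, or 436 CPM (425 to 447), in the naive library. No neighbouring intervals overlapped in that order of levels, which was naive, untreated, toxin-plus-antibody, antibody and toxin. The last places turn with the scaling: with TMM factors, which correct for differences in composition between libraries, Cdkn1b stood at 172 CPM in the toxin and 165 CPM in the antibody library.

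Cdkn1a had 1027 UMIs, or 60.9 CPM (57.2 to 64.7), in the toxin-plus-antibody library and 1115 UMIs, or 69.0 CPM (65.0 to 73.2), in the toxin library. It had 102 UMIs, or 3.65 CPM (2.97 to 4.43), in the antibody library, 0 UMIs in the untreated library, where 3 UMIs, taken as the limit that a count of 0 allows, are 0.784 CPM, and 18 UMIs, or 1.31 CPM (0.775 to 2.07), in the naive library. The 102 UMIs of the antibody library came from 39 cells, and 25 of them from 1 cell. The untreated limit reached into the naive interval, whereas those of the toxin and toxin-plus-antibody libraries stood apart from each other and from the rest.

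Cdkn2a had 1450 UMIs, or 86.0 CPM (81.6 to 90.5), in the toxin-plus-antibody library and 1662 UMIs, or 103 CPM (98.0 to 108), in the toxin library. It had 24 UMIs, or 0.858 CPM (0.550 to 1.28), in the antibody library, and 0 UMIs in the untreated and naive libraries, with limits of 0.784 and 0.218 CPM. The untreated limit reached into the antibody interval and the naive limit did not. Cdkn2c had 1362 UMIs, or 80.8 CPM (76.5 to 85.2), in the toxin-plus-antibody library, 1680 UMIs, or 104 CPM (99.1 to 109), in the toxin library, 1675 UMIs, or 59.9 CPM (57.1 to 62.8), in the antibody library, 109 UMIs, or 28.5 CPM (23.4 to 34.4), in the untreated library, and 119 UMIs, or 8.64 CPM (7.16 to 10.3), in the naive library. All 5 Cdkn2c intervals were separate. A summed level cannot tell fewer expressing cells from less RNA per cell, so the share of cells with a UMI was counted after each cell had been thinned to 1000 UMIs.

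**Figure D1:**
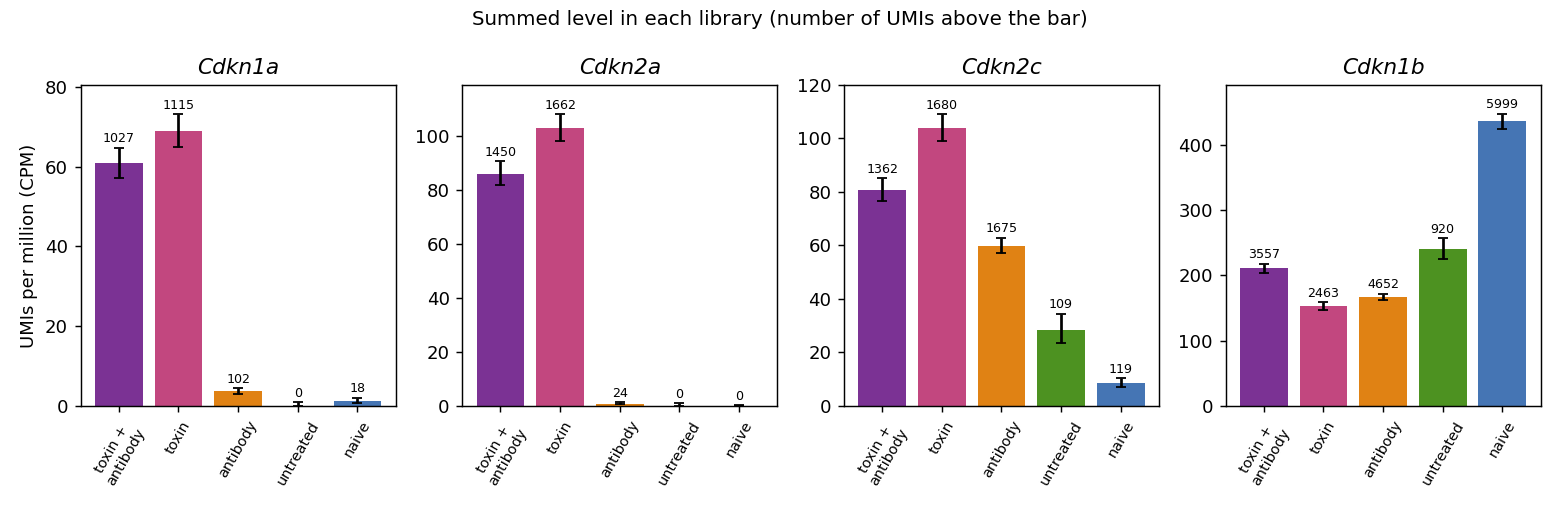
Level of each CDK inhibitor gene in the 5 libraries, in CPM on the vertical axis of each panel, with 95% Poisson intervals as error bars and the number of UMIs above each bar. Cdkn1a and Cdkn2a stand at 60.9 CPM or more in both toxin libraries and at 3.65 CPM or less elsewhere, while Cdkn1b is highest in the naive library.

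At 1000 UMIs per cell, Cdkn2a was seen in 4.04% of 3959 toxin-plus-antibody cells and 6.93% of 2151 toxin cells, against 0.0438% of 4566 antibody cells, 0 of 1077 untreated cells and 0 of 7825 naive cells. The limits that a count of 0 allows were 0.279% in the untreated and 0.0383% in the naive library. The Cdkn1a shares were 3.64% and 4.88% in the toxin-plus-antibody and toxin libraries, against 0.263%, 0% and 0.0767% in the antibody, untreated and naive libraries. Cdkn2c was seen in 5.71%, 6.46%, 3.20%, 3.06% and 0.728% of cells in the same library order, and Cdkn1b in 23.8%, 18.1%, 17.6%, 23.3% and 33.3%. Before thinning the Cdkn2a shares were 14.1% and 24.5% in the toxin-plus-antibody and toxin libraries and the Cdkn1a shares 10.9% and 18.1%. Before thinning Cdkn1b was seen in 52.4%, 59.2%, 56.5%, 50.5% and 48.3% of cells, and Cdkn2c in 18.9%, 31.6%, 16.8%, 8.17% and 1.47%. The naive share of Cdkn1b was thus the highest at equal depth and the lowest without it.

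Untreated node cells held less Cdkn1b and more Cdkn2c than naive spleen cells. The ratio of CPM, untreated over naive, was 0.552 (0.514 to 0.592) for Cdkn1b and 3.30 (2.52 to 4.31) for Cdkn2c. Cdkn1a had 0 UMIs in the untreated and 18 in the naive library, whose interval the untreated limit reaches, and Cdkn2a was at 0 in both. Only Cdkn1b reached the minimum used for counting genes (a mean of 25 CPM and 30 UMIs over both sides), and it was past 1.5-fold lower, as were 16.9% of all genes that reached it (12.8% were past 1.5-fold higher).

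Antibody cells held more Cdkn2c than untreated cells. The ratio for Cdkn2c was 2.10 (1.73 to 2.58), and it was 0.912 among cells in which none of 6 cycling genes was seen. The ratio for Cdkn1b was 0.692 (0.644 to 0.743). Against an untreated library at 0, with 3 UMIs as its floor, Cdkn1a was 4.65-fold higher (the lower limit of the exact interval was 3.71). Against that floor it was 2.72-fold higher without cells with 2 or more markers of another cell type. The interval takes UMIs as independent, but the 102 Cdkn1a UMIs came from 39 cells, with 25 UMIs in 1 cell. At equal depth the antibody share of cells with Cdkn1a lay below the untreated limit. By share of cells, the 2 libraries thus could not be told apart for Cdkn1a. The 24 Cdkn2a UMIs of the antibody library could not be told from the untreated limit. Of the 2 members that reached the minimum, 1 was past 1.5-fold higher, against 5.46% of all genes, and 0 were lower, against 6.62%. The share of called genes that were higher was 62% with TMM factors (a shift of 0.09 log2) and 45.2% without.

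Toxin cells held more Cdkn1a, Cdkn2a and Cdkn2c than untreated cells. Against the same floor Cdkn2a was 131-fold and Cdkn1a 88.0-fold higher, and the exact intervals reached down to 107 and 71.5. Cdkn2c was 3.65 (3.01 to 4.47) times the untreated level. The Cdkn1b ratio was 0.634 (0.588 to 0.685), but it was between 0.767 and 0.838 under 5 alternatives (TMM factors, the mean over single cells, and without other-type, Foxp3 or cycling cells), none past 1.5-fold. Without cycling cells Cdkn2c stood at 1.96 times the untreated level. Without the cells that had a Foxp3 UMI the values against the floor were 32.6 for Cdkn2a and 27.9 for Cdkn1a. The ratios were then 2.40 for Cdkn2c and 0.802 for Cdkn1b. All 4 members reached the minimum: 3 were past 1.5-fold higher, against 12.2% of all genes, and 1 lower, against 27.5%. TMM factors moved all log2 ratios of this comparison by 0.28, and the share of called genes that were higher was 57.5% with them and 30.7% without.

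Without cells that carried 2 or more markers of another cell type, the toxin over untreated values against the floor were 61.2 for Cdkn1a and 72.6 for Cdkn2a. Such cells are called other-type cells here, but they were not shown to be of another type. In the toxin-plus-antibody and toxin libraries 875 of 4343 and 750 of 2186 cells had 2 or more of the 6 plasma cell markers. Of these markers, Jchain was found in 19 and 33 cells, and Ighm in 68.4% and 82.2% of cells. The part of Treg and plasma cell RNA in the library differences was otherwise not tested.

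Between the 2 toxin libraries the differences were smaller. The toxin-plus-antibody level over the toxin level was 0.882 (0.810 to 0.961) for Cdkn1a, 0.835 (0.778 to 0.897) for Cdkn2a, 0.776 (0.722 to 0.834) for Cdkn2c and 1.38 (1.31 to 1.46) for Cdkn1b. None of the 4 was past 1.5-fold, where 4.44% of all genes were past it higher and 0.99% lower, and the share of called genes that were higher was 65.9% with TMM factors (a shift of -0.11 log2) and 81.8% without. Without Foxp3 cells the ratios were 0.803, 0.899, 0.574 and 1.58 in the same gene order, so that Cdkn2c and Cdkn1b passed 1.5-fold. Cdkn1a and Cdkn2a passed it as means over single cells, at 0.665 and 0.577, and without cycling cells, at 0.569 and 0.661.

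Set against the antibody library, the toxin-plus-antibody library held 16.7 (13.6 to 20.7) times as much Cdkn1a and 100.2 (67.1 to 157) times as much Cdkn2a. Its ratios for Cdkn2c and Cdkn1b were 1.35 (1.25 to 1.45) and 1.27 (1.21 to 1.32). Of the 4 members 2 were past 1.5-fold higher, against 7.81% of all genes, and 0 were lower, against 9.64%. Without Foxp3 cells the ratios were 4.81 for Cdkn1a, 26.7 for Cdkn2a, 0.672 for Cdkn2c and 1.81 for Cdkn1b. Without cycling cells they were 8.55 for Cdkn1a, 1.83 for Cdkn2c and 1.53 for Cdkn1b, and as means over single cells 48.9 for Cdkn2a and 1.59 for Cdkn1b, which was 1.56 without other-type cells. The share of called genes that were higher was 54.7% with TMM factors (614 higher and 509 lower) and 44.8% without (509 and 628), so the majority direction turned. The 5 comparisons share libraries and are not independent of each other.

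To set the inhibitors against the cell cycle, cells were grouped by how many of 6 cycling genes (Mki67, Top2a, Birc5, Cdk1, Ccna2 and Ccnb2, which act in DNA replication and mitosis) had a UMI after thinning to 1000 UMIs. Cells with 2 or more made up 21.3% of the toxin-plus-antibody, 27.6% of the toxin, 15.6% of the antibody and 2.04% of the untreated cells. In the naive library they made up 0.0511%, or 4 cells, and are not compared. Levels within a class use all UMIs of its cells.

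Cdkn2c was higher in cycling cells in every node library, p18Ink4c being an inhibitor of the step into DNA synthesis. From 0 to 1, 2, and 3 or more cycling genes seen it stood at 36.5, 50.9, 91.7 and 158 CPM in the toxin-plus-antibody library. In the toxin library it stood at 42.9, 70.6, 117 and 189 CPM, and in the antibody library at 19.9, 39.3, 78.4 and 195 CPM. The untreated classes, the upper ones with 10 and 12 cells, stood at 21.8, 28.3, 106 and 214 CPM. The level was higher in each further class of all 4 libraries. The ratio of cells with 2 or more to cells with 0 was 3.73 (3.24 to 4.30) in the toxin-plus-antibody, 3.88 (3.39 to 4.45) in the toxin, 7.49 (6.60 to 8.51) in the antibody and 7.30 (4.50 to 11.5) in the untreated library. Without the cells that had a Foxp3 UMI it was 4.05 in the toxin-plus-antibody and 7.82 in the toxin library. With 1 or more cycling genes as the upper class it was 3.11 in the untreated library.

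Cdkn1b was lower in cycling cells of the 2 toxin libraries. It stood at 139.7 CPM in cells with 2 or more cycling genes and 283 CPM in cells with 0 in the toxin-plus-antibody library, a ratio of 0.494 (0.457 to 0.533). In the toxin library it stood at 119.5 and 205 CPM, a ratio of 0.584 (0.535 to 0.637). Without the cells that had a Foxp3 UMI these ratios were 0.620 and 0.584. With classes set at 500 UMIs the toxin ratio was 0.722, no longer past 1.5-fold. The ratio was 0.792 (0.739 to 0.848) in the antibody library and 0.991 (0.706 to 1.36) in the untreated library, neither past 1.5-fold. From 0 to 1, 2, and 3 or more cycling genes the level was 283, 179, 121 and 149 CPM in the toxin-plus-antibody library and 185, 138, 129 and 158 CPM in the antibody library. It was 205, 124, 111 and 123 CPM in the toxin library and 244, 211, 164 and 321 CPM in the untreated library. The value was lowest at 2 genes in each of the 4, but that untreated class held 10 cells. Differences between neighbouring classes were not tested.

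Cdkn1a and Cdkn2a had no common relation to the cycling class. In the toxin-plus-antibody library cells with 2 or more cycling genes held 83.6 CPM of Cdkn1a, against 44.1 CPM in cells with 0, a ratio of 1.90 (1.65 to 2.19), and 115 CPM of Cdkn2a, against 62.8 CPM, a ratio of 1.83 (1.62 to 2.06). In the toxin library the ratios were 0.761 (0.667 to 0.869) for Cdkn1a and 1.11 (0.998 to 1.24) for Cdkn2a. Without the cells that had a Foxp3 UMI, both were higher in cycling cells of both toxin libraries. Cdkn1a was higher by 10.6-fold and Cdkn2a by 7.50-fold in the toxin-plus-antibody library, and by 2.81-fold and 3.80-fold in the toxin library. Over all cycling classes, 74 of the 114 toxin-plus-antibody Cdkn1a UMIs in cells without a Foxp3 UMI lay in cells with a UMI of the Treg marker Il2ra. In the toxin library it was 78 of 107. Whether these were Foxp3 cells with no Foxp3 UMI seen was not tested. Without other-type cells, which were set by marker UMIs alone, the toxin-plus-antibody ratios were 3.96 for Cdkn1a and 3.56 for Cdkn2a. The toxin ratios were then 1.505 for Cdkn1a and 2.80 for Cdkn2a. In the antibody library the Cdkn1a ratio was 0.413 (0.229 to 0.704), and 0.663 without other-type cells. Its Cdkn2a ratio, 2.38 (0.895 to 6.49), rests on 11 and 9 UMIs and was 0.790 with classes set at 500 UMIs. Of the members that reached the minimum, past 1.5-fold higher were 3 of 4 in the toxin-plus-antibody library (13.7% of all genes), 1 of 4 in the toxin library (12.5%), 1 of 2 in the antibody library (8.53%) and 1 of 2 in the untreated library (13.5%). Past 1.5-fold lower were 1 of 4 (28.4%), 1 of 4 (20.7%), 0 of 2 (14%) and 0 of 2 (20.8%) in the same order.

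Cycling cells were also deeper. Their median was 7123.5 UMIs, against 2277 UMIs in cells with 0 cycling genes, in the toxin-plus-antibody library, 11255 against 4089 in the toxin library, 10579 against 4161 in the antibody library and 6815 against 3075 in the untreated library. CPM divides by the total, and what the depth difference contributes was not tested.

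**Figure D2:**
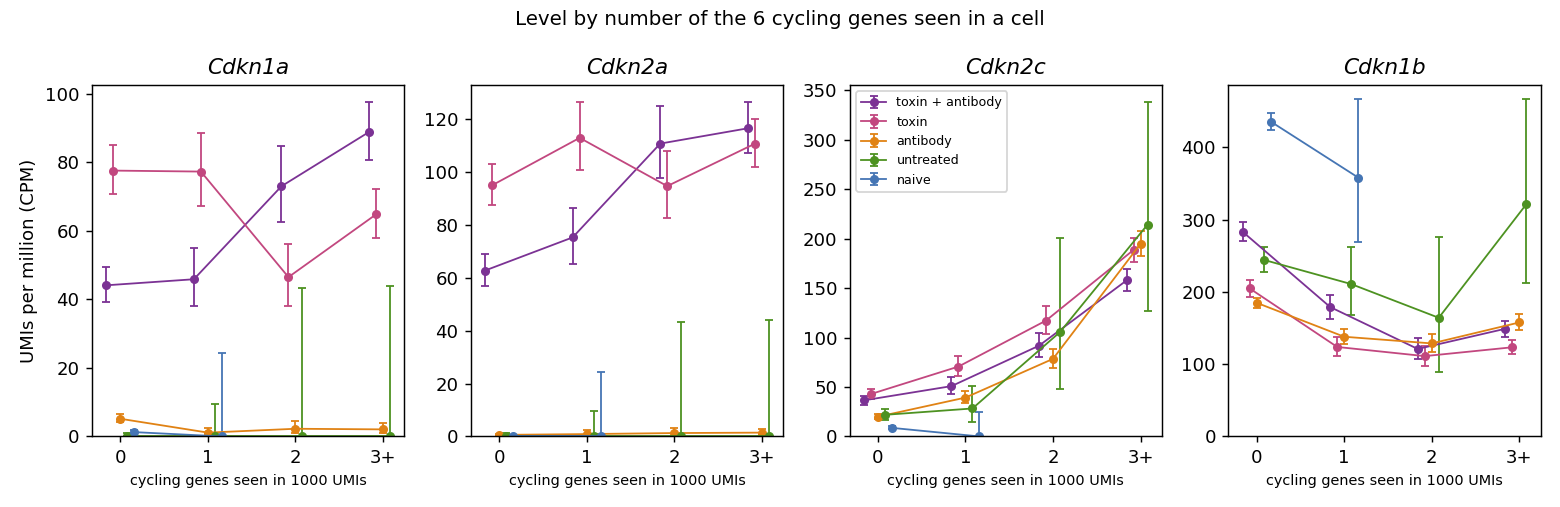
Level of each member, in CPM on the vertical axis, by the number of 6 cycling genes seen at 1000 UMIs per cell on the horizontal axis, with 1 line per library, 95% Poisson intervals as bars and classes of 10 or more cells only. Cdkn2c is higher in each further class of the 4 node libraries, with 19.9 CPM at 0 and 195 CPM at 3 or more genes in the antibody library, and Cdkn1b is highest in naive cells with 0.

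Foxp3 cells carried most of the Cdkn1a and Cdkn2a RNA of the 2 toxin libraries. Cells with a Foxp3 UMI held 88.9% of the Cdkn1a UMIs and 89.7% of the Cdkn2a UMIs of the toxin-plus-antibody library, and 90.4% and 92.5% of those of the toxin library. They held 81.3% and 80.1% of the Cdkn2c UMIs and 45.7% and 62.5% of the Cdkn1b UMIs of the toxin-plus-antibody and toxin libraries. These cells held 62.1% and 70.2% of all UMIs of the 2 libraries. They were deeper than the rest, with a median of 4599 against 1952.5 UMIs in the toxin-plus-antibody and 6611.5 against 3835.5 UMIs in the toxin library.

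With Foxp3 status read at 1000 UMIs, cells with a Foxp3 UMI held 86.6 CPM of Cdkn1a in the toxin-plus-antibody library, against 53.1 CPM in cells without, a ratio of 1.63 (1.43 to 1.86). The toxin library had 89.9 against 61.2 CPM, a ratio of 1.47 (1.30 to 1.67). The Cdkn2a ratios were 1.46 (1.30 to 1.63) in the toxin-plus-antibody library and 1.57 (1.42 to 1.74) in the toxin library. Cdkn2c ratios were 1.27 and 1.102, and Cdkn1b ratios 0.914 and 1.11, in the toxin-plus-antibody and toxin libraries. Past 1.5-fold higher were 1 of 4 members in the toxin-plus-antibody library (Cdkn1a; 2.8% of all genes) and 1 of 4 in the toxin library (Cdkn2a; 2.84%), and 0 were lower (7.2% and 2.48%). As means over single cells the Cdkn1a ratio of the toxin library was 2.01 and the toxin-plus-antibody ratios were 2.23 for Cdkn2a and 1.57 for Cdkn2c, all past 1.5-fold.

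Thinning leaves many Foxp3 cells without a Foxp3 UMI, so the status was also read from all UMIs of a cell. The Cdkn2a ratio was then 5.30 in each of the 2 toxin libraries, and the Cdkn1a ratio 4.95 in the toxin-plus-antibody and 3.99 in the toxin library. The Cdkn2c ratios were 2.59 and 1.70 and the Cdkn1b ratios 0.532 and 0.710 in the toxin-plus-antibody and toxin libraries. Past 1.5-fold higher were 3 of 4 members in each (13.1% and 8.33% of all genes), and past 1.5-fold lower 1 of 4 in the toxin-plus-antibody library (27.1%) and 0 of 4 in the toxin library (14.1%). The sizes of these ratios therefore depend on how Foxp3 status is read.

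Among cells in which no cycling gene was seen, Foxp3 cells held more of both Cdkn1a and Cdkn2a. Among toxin-plus-antibody cells with 0 cycling genes, those with a Foxp3 UMI at 1000 UMIs held 103 CPM of Cdkn1a and 124 CPM of Cdkn2a, against 29.4 and 47.6 CPM in those without. Among toxin cells with 0 cycling genes the values were 116 and 164 CPM, against 61.6 and 65.9 CPM. Among cells with 2 or more cycling genes, Foxp3 cells and the rest held 83.2 and 83.8 CPM of Cdkn1a in the toxin-plus-antibody library and 53.9 and 60.9 CPM in the toxin library. Their Cdkn2a levels were 115 and 114 CPM in the toxin-plus-antibody library and 109.9 and 104 CPM in the toxin library. Thinning left a Foxp3 UMI in 31.6% of these toxin-plus-antibody cells and 29.7% of these toxin cells, against 79.3% and 79.8% before it. Many of the rest therefore had a Foxp3 UMI before thinning. The near-equal levels thus cannot tell whether cycling Foxp3 cells differ from cycling cells without Foxp3.

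Foxp3 cells outside the toxin libraries were few and held 0 or 1 UMI of Cdkn1a and 0 UMIs of Cdkn2a. The antibody library had 54 cells with a Foxp3 UMI and 0 UMIs of either gene in them, which at 3 UMIs allows up to 6.36 CPM, whereas Foxp3 cells of the toxin-plus-antibody library held 87.2 CPM of Cdkn1a and 124 CPM of Cdkn2a and those of the toxin library 89.0 and 136 CPM. The 16 Foxp3 cells of the untreated library also had 0 UMIs of both, which allows up to 54.4 CPM. The 72 of the naive library had 1 Cdkn1a UMI and 0 Cdkn2a UMIs, which allows up to 20.9 CPM of Cdkn2a.

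Cells were then split by Foxp3 and by receptor UMIs (Trav14d-3-dv8 or Trbv13-1, segments of the SMARTA receptor), with both read from all UMIs. This split was chosen after the data had been seen. In the toxin-plus-antibody library 1342 cells had Foxp3 without a receptor UMI, 307 had both, 1326 had the receptor alone and 1368 had neither. In the toxin library the numbers were 1009, 275, 495 and 407. A Trbv13-1 UMI was found in 32.4% of all toxin-plus-antibody cells and 30.4% of all toxin cells. The shares were 63.3%, 50.9% and 24.1% in the antibody, untreated and naive libraries, without thinning. All cells were sorted as SMARTA cells, but whether Foxp3 cells without a receptor UMI carry the SMARTA receptor was not tested.

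Cells with a receptor UMI and no Foxp3 UMI held little Cdkn1a: 1.51 CPM (5 UMIs) in the toxin-plus-antibody library, 9.45 CPM in the toxin library and 2.99 CPM in the antibody library. Foxp3 cells without a receptor UMI held 100.3 CPM in the toxin-plus-antibody and 89.0 CPM in the toxin library, and Foxp3 cells with one 37.5 and 88.7 CPM. Cells with neither held 35.4 and 40.7 CPM.

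Cdkn2a followed the same order in the toxin-plus-antibody library. Foxp3 cells without a receptor UMI held 143 CPM, Foxp3 cells with one 54.9 CPM, cells with neither 40.6 CPM and receptor cells without Foxp3 7.23 CPM. In the toxin library the values were 145, 104, 43.3 and 14 CPM. In the antibody library receptor cells without Foxp3 held 0.689 CPM. At 1000 UMIs a Cdkn2a UMI was seen in 9.51% of toxin-plus-antibody Foxp3 cells without a receptor UMI (median 4358 UMIs before thinning) and 0.489% of receptor cells without Foxp3 (median 2182.5), and in 11.6% (median 6284) and 1.42% (median 4443) of these classes in the toxin library.

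Most of the Cdkn1a and Cdkn2a RNA in toxin library cells without a Foxp3 UMI sat in cells with a UMI of Il2ra, the high-affinity interleukin receptor chain that Tregs carry. They held 74 of 114 such Cdkn1a UMIs and 105 of 149 such Cdkn2a UMIs in the toxin-plus-antibody library, and 78 of 107 and 80 of 125 in the toxin library. The ratios given without Foxp3 cells include these cells. Cells with an Il2ra UMI and no Foxp3 UMI held 67.3 CPM of Cdkn1a and 95.6 CPM of Cdkn2a in the toxin-plus-antibody library (324 cells), and 78.8 and 80.9 CPM in the toxin library (128 cells). Cells with no UMI of Foxp3, Il2ra or the receptor held 15.5 and 14.2 CPM of Cdkn1a and Cdkn2a in the toxin-plus-antibody library and 6.56 and 14.6 CPM in the toxin library. Activated T cells without Foxp3 also make Il2ra, so an Il2ra UMI does not name a Treg.

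Cdkn2c and Cdkn1b were present in every class. Receptor cells without Foxp3 held 38.0, 73.5, 63.6, 31.2 and 8.31 CPM of Cdkn2c in the toxin-plus-antibody, toxin, antibody, untreated and naive libraries, and 323, 202, 168, 232 and 447 CPM of Cdkn1b. Foxp3 cells without a receptor UMI held 107 and 121 CPM of Cdkn2c, and 149.6 and 134 CPM of Cdkn1b, in the toxin-plus-antibody and toxin libraries. In these libraries, Cdkn2c was thus higher and Cdkn1b lower in Foxp3 cells without a receptor UMI than in receptor cells without Foxp3.

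**Figure D3:**
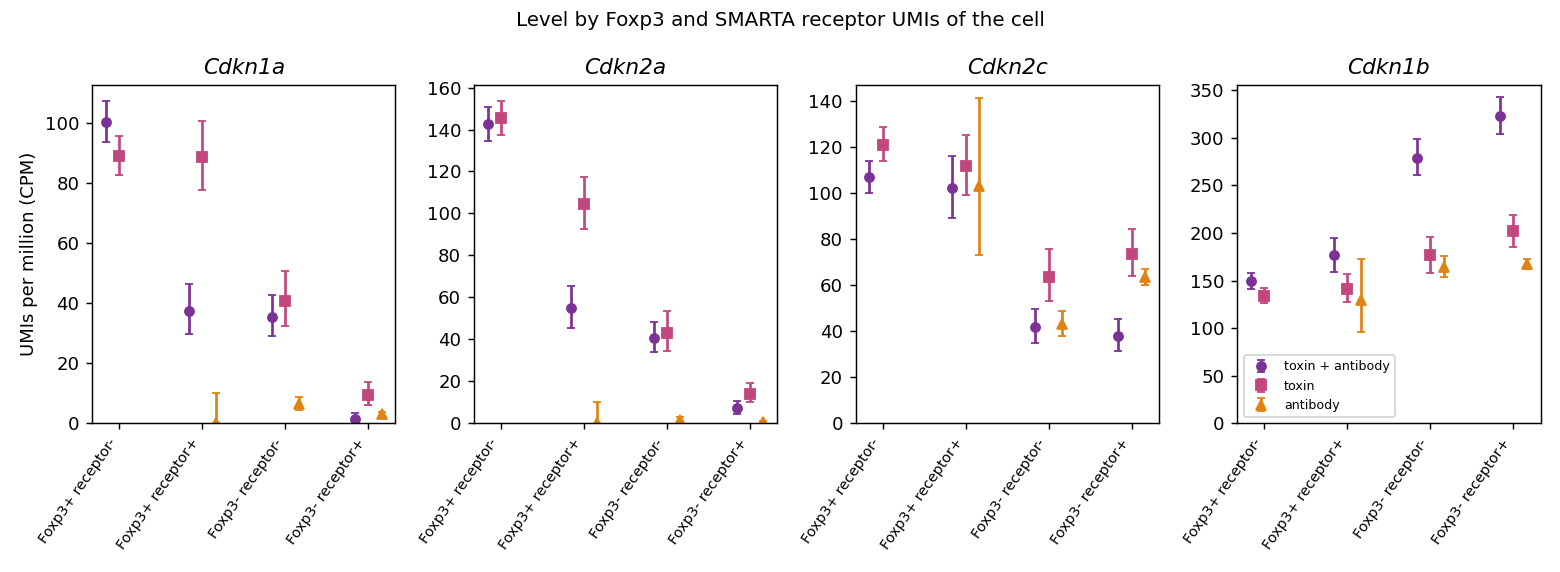
Level of each member, in CPM on the vertical axis, in classes of cells by Foxp3 UMI and SMARTA receptor UMI (horizontal axis) for the toxin-plus-antibody, toxin and antibody libraries, with 95% Poisson intervals and classes of 30 or more cells only. Cdkn1a and Cdkn2a are highest in Foxp3 cells of the 2 toxin libraries and lowest there in receptor cells without Foxp3, at 1.51 and 9.45 CPM of Cdkn1a.

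Within receptor cells without Foxp3, Cdkn2a and Cdkn2c stood higher in cycling cells of the toxin libraries. Cdkn2a stood at 34.6 CPM (11 UMIs) in cells with 2 or more cycling genes and 4.44 CPM (11 UMIs) in cells with 0 in the toxin-plus-antibody library, and at 40.6 CPM (29 UMIs) and 2.43 CPM (4 UMIs) in the toxin library. Cdkn2c stood at 151 and 27.1 CPM in the toxin-plus-antibody, 198 and 23.0 CPM in the toxin, 154 and 19.9 CPM in the antibody and 162 and 23.5 CPM in the untreated library.

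When only cells with no Foxp3 UMI and 0 cycling genes were kept, the node libraries drew together for Cdkn2c. Its level was 28.1 (23.3 to 33.6), 23.0 (17.7 to 29.4), 20.1 (17.9 to 22.5) and 22.2 (17.4 to 28.0) CPM in the toxin-plus-antibody, toxin, antibody and untreated libraries, against 8.16 (6.70 to 9.84) CPM in the naive library. The other node intervals each overlapped the untreated one, although those of the toxin-plus-antibody and antibody libraries did not meet, and all 4 lay above the naive interval. Cdkn1b stood at 316, 227, 185, 243 and 435 CPM in the same library order and remained highest in naive cells. Cdkn2a stood at 11.1, 13.9 and 0.588 CPM in the toxin-plus-antibody, toxin and antibody libraries and at 0 in the untreated and naive libraries. Cdkn1a stood at 6.91, 14.6, 5.23, 0 and 1.20 CPM in the 5 libraries.

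**Figure D4:**
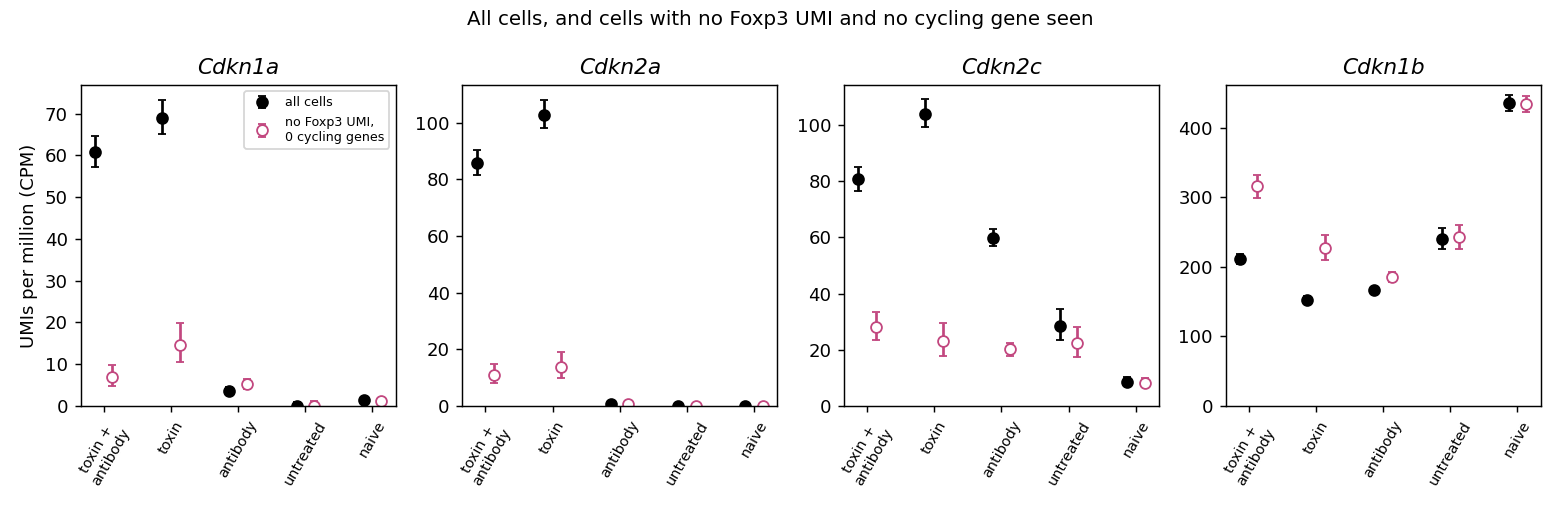
Level of each member, in CPM on the vertical axis, in all cells and in cells with no Foxp3 UMI and 0 cycling genes seen, for each library on the horizontal axis, with 95% Poisson intervals. In the smaller set Cdkn2c stands between 20.1 and 28.1 CPM in the 4 node libraries and at 8.16 CPM in the naive library.

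Cells with a Cdkn1a UMI had a Cdkn2a UMI more often than all cells of the toxin libraries did, but in most of them none was seen. At 1000 UMIs, 27 of 144 toxin-plus-antibody cells with Cdkn1a also had Cdkn2a, or 18.8%, and they were 16.9% of the 160 cells with Cdkn2a, where 4.04% of all cells had Cdkn2a. In the toxin library 25 of 105 cells with Cdkn1a also had Cdkn2a, or 23.8%, and they were 16.8% of 149 cells with Cdkn2a, where 6.93% of all cells had Cdkn2a. Among cells with a Foxp3 UMI alone, 21.3% of Cdkn1a cells in the toxin-plus-antibody library had Cdkn2a, where 8.35% of all such cells had it, and 23.9% in the toxin library, where 10.6% had it. Cdkn1b was seen in 11.8% of Cdkn1a cells of the toxin-plus-antibody library, where 23.8% of all cells had it, and in 19.05% of those of the toxin library, where 18.1% had it. Cells are not replicates, and these shares describe the 2 libraries.

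Of the other inhibitor genes, Cdkn3 had the library order of Cdkn2c, and Cdkn2b, at a low level, that of Cdkn2a. Cdkn2d, which encodes p19Ink4d, stood at 253, 243, 185, 156 and 280.2 CPM in the toxin-plus-antibody, toxin, antibody, untreated and naive libraries. Cdkn3, a phosphatase that acts on CDK2 and is made by dividing cells, stood at 98.1, 119, 74.8, 18.0 and 0.944 CPM. Cdkn2b, which encodes p15Ink4b and lies beside Cdkn2a, stood at 5.16, 5.82 and 0.501 CPM in the toxin-plus-antibody, toxin and antibody libraries and at 0 in the untreated and naive libraries. Cdkn1c, which encodes p57Kip2, stood between 1.79 CPM (antibody) and 4.86 CPM (toxin-plus-antibody).

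In the cell cycle genes around the inhibitors, cyclin E1, most E2F factors and Cks1b were higher in cycling cells. Of the E2F factors and their partners, 5 of 7 measured genes were higher and 1 lower in cycling cells of the toxin-plus-antibody library, with 5 higher and 0 lower of 6 in the toxin, 4 and 0 of 7 in the antibody and 5 and 0 of 6 in the untreated library, where 8.53% to 13.7% of all genes were higher. E2f1 held 47.0 CPM in cells with 2 or more cycling genes and 13.8 CPM in cells with 0 of the toxin-plus-antibody library, and E2f8, a repressor of the family, 63.4 and 4.85 CPM. Cyclin E1 (Ccne1), the partner of CDK2 that p21 and p27 restrain, was 5.25-fold higher in cycling cells of the toxin-plus-antibody, 4.005-fold in the toxin, 3.43-fold in the antibody and 6.40-fold in the untreated library. Cdk2 was 2.41, 2.38, 2.95 and 3.84 times as high in the same order. Rbl2, a retinoblastoma relative of resting cells, had ratios of 0.454, 0.658, 0.711 and 0.761, past 1.5-fold lower in the 2 toxin libraries. Of the 3 retinoblastoma family genes, 1 was higher in each library. Of the G1 cyclins measured, 2 of 4 were higher in the toxin-plus-antibody, toxin and antibody libraries and 1 of 3 in the untreated library. In the antibody and untreated libraries 1 G1 cyclin was lower. Of 3 G1 CDKs, 1, 2, 1 and 2 were higher in the same library order and 0 were lower.

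Among 9 genes of p27 turnover, Cks1b, which helps the ubiquitin ligase subunit Skp2 to recognise p27, was 6.86-fold higher in cycling cells of the toxin-plus-antibody, 6.21-fold in the toxin, 6.35-fold in the antibody and 10.8-fold in the untreated library. Xpo1, the nuclear export receptor, was 2.27, 2.31, 2.00 and 2.29 times as high, and Rnf123, a ligase subunit for cytoplasmic p27, 0.481, 0.530, 0.527 and 0.633 times. Of 8 measured genes 2 to 3 were higher and 1 lower in each library, where 8.53% to 13.7% of all genes were higher and 14% to 28.4% lower.

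Of the 12 genes of p27 transcription and quiescence, several were lower in the untreated than in the naive library. From untreated over naive, 0 of 9 measured genes were higher and 5 lower. Their median log2 ratio was -0.77, against -0.06 over all genes, of which 16.9% were lower. Klf2, which keeps T cells quiescent, stood at 608 CPM in the untreated and 2355 CPM in the naive library, and Foxp1 at 618 and 1591 CPM. From toxin over untreated, 0 of 9 measured genes were higher and 6 lower, and 1 and 5 with TMM factors, where 27.5% of all genes were lower without these factors. Foxp1 stood at 122 CPM in the toxin and 618 CPM in the untreated library. From antibody over untreated, 0 of 9 measured genes were higher and 6 lower, against 6.62% of all genes lower. From toxin-plus-antibody over antibody 2 of 8 were higher and 1 lower (3 and 1 with TMM factors), with Tsc22d3, a glucocorticoid-induced gene, at 124 CPM in the toxin-plus-antibody and 36.1 CPM in the antibody library, where 7.81% of all genes were higher and 9.64% lower. From toxin-plus-antibody over toxin 1 of 7 was higher and 0 were lower, where 4.44% of all genes were higher and 0.99% lower. The 1 gene was Foxp1, at 262 CPM in the toxin-plus-antibody and 122 CPM in the toxin library. Between cycling cells and cells with 0 cycling genes, 7 of 8 were lower in the toxin-plus-antibody, 4 of 7 in the toxin, 4 of 7 in the antibody and 6 of 9 in the untreated library, where 28.4%, 20.7%, 14% and 20.8% of all genes were lower, and 0 were higher.

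Of 25 p53 targets (p53 included, Cdkn1a not), 15 were measured from toxin over untreated. Of these 2 were higher and 7 lower, or 4 and 2 with TMM factors, where 12.2% of all genes were higher and 27.5% lower, so the higher share without these factors was near that of all genes. Gadd45b, a stress gene, was 2.39 times as high in the toxin as in the untreated library, and the antiproliferative gene Btg2 stood at 160.5 CPM in the toxin and 468 CPM in the untreated library. From toxin-plus-antibody over antibody 1 of 15 was higher and 3 were lower (2 and 2 with TMM factors), against 7.81% and 9.64% of all genes, and Trp53, the gene of p53 itself, stood at 233 CPM in the toxin-plus-antibody and 368 CPM in the antibody library. In cycling cells 0 of the measured p53 genes were higher in any of the 4 node libraries, where 8.53% to 13.7% of all genes were higher. Lower were 5 of 16 in the toxin-plus-antibody, 5 of 14 in the toxin, 3 of 13 in the antibody and 5 of 15 in the untreated library. Of all genes 28.4%, 20.7%, 14% and 20.8% were lower in the same order, so the toxin-plus-antibody count was near the share of all genes.

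Of 14 genes that regulate Ink4 and Arf, many of them Polycomb proteins that silence Cdkn2a, 2 of 11 measured genes were higher and 5 lower from toxin over untreated, and 3 and 3 with TMM factors, where 12.2% of all genes were higher and 27.5% lower. The 3 that differed most were all lower. Kdm6b, which removes the Polycomb mark, stood at 63.4 CPM in the toxin and 197 CPM in the untreated library, the Polycomb ubiquitin ligase Rnf2 at 34.4 and 73.4 CPM, and Dmtf1, an activator of Arf, at 44.6 and 82.3 CPM. Ezh2, the Polycomb methyltransferase, was 2.88, 3.15, 2.32 and 3.58 times as high in cycling cells as in cells with 0 cycling genes of the toxin-plus-antibody, toxin, antibody and untreated libraries.

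The genes whose levels ran most like each member were ranked by Pearson's r of log2(CPM + 1) over 15 points, the 5 libraries by cells with 0, 1 and 2 or more cycling genes, among 6570 genes. The points share libraries and depth, the toxin libraries set the high points for Cdkn1a and Cdkn2a, and the naive point of 2 or more genes rests on 4 cells, so r is a description. For Cdkn2a the 4 most alike were Havcr2 (0.997), the co-inhibitory receptor Tim-3, then Ermn (0.996), Cdkn1a (0.980) and Snx2 (0.978). Among the most alike for Cdkn1a were Havcr2 (0.982), Cdkn2a (0.980), Ermn (0.971) and Snx2 (0.968). For Cdkn2c the 4 most alike were the histone genes Hist2h2ac (0.977), Hist1h3e (0.976) and Hist2h2aa1 (0.972) and the centromere protein gene Cenpp (0.974). For Cdkn1b the 5 most alike were Mylip (0.979), the acetyltransferase gene Ep300 (0.976), Crlf3 (0.973), the ubiquitin ligase gene Itch (0.968) and Zfp263 (0.961). Over the 14 points without the naive point of 4 cells, an alternative added after the data had been seen, the first gene stayed Havcr2 for Cdkn1a and Cdkn2a and became Hist1h3e for Cdkn2c, and none of the 5 Cdkn1b genes stayed among its first 5.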

How the data were processed

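Single-cell RNA was measured in 5 libraries of cells sorted as SMARTA CD4 T cells, 1 per group. Each is a table of UMI counts per gene and cell that the authors deposited without normalization. Per the submitters' processing notes the tools were bcl2fastq 2.20, Cell Ranger 6.0.0, R 4.1.1 and Seurat 4.0.4, and the build was mm10. How the authors chose cells is not given in the sources used here. A filter of 200 genes or more and 10% mitochondrial UMIs or fewer removed 0 cells, no doublet caller was run, and 0 columns went unused. Depth was 3825958 to 27967273 UMIs per library.

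UMI counts were summed per library or class of cells and scaled to the total (CPM), with exact 95% Poisson intervals, exact conditional intervals for ratios, and a floor of 3 UMIs per side where a side was at 0. With 1 library per group, no test was possible, and a gene counted as called past 1.5-fold among genes with a mean of 25 CPM and 30 UMIs. Cycling class, Foxp3 status and shares of cells were read after thinning each cell to 1000 UMIs, leaving out shallower cells: 384 in the toxin-plus-antibody, 35 in the toxin, 0 in the antibody, 22 in the untreated and 130 in the naive library. The named genes were the members, the 3 genes of each list with the largest absolute log2 ratio in a comparison, and the 5 genes most like each member, of which some are not reported here. Members and gene lists were chosen with earlier results of these data known. Of the 11924 gene names, 11809 matched GENCODE M21, and promoter windows were read from RefSeq. Python 3.11.15, numpy 2.4.6, scipy 1.17.1, pandas 2.3.3 and edgeR 4.0.16 (TMM factors only) were used. Counting was tested on simulated data. Alternatives were TMM factors, the mean of single-cell CPM, stricter cell filters, other class definitions and leaving out classes of cells.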

Additional observations from a re-analysis of the deposited data

Results flagged for a closer look

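No difference named here was tested, since each group is 1 library, and each pair or set of ratios ran in opposite directions in the values as reported, under the same kind of contrast. Addition of the antibody went with a Cdkn1b ratio of 1.38 on top of the toxin (toxin-plus-antibody over toxin) and of 0.692 without it (antibody over untreated). The same pair of contrasts gave 0.776 and 2.10 for Cdkn2c, and 0.851 and 0.912, both below 1, without cells with a cycling gene. The toxin gave a Cdkn1b ratio of 1.27 with the antibody (toxin-plus-antibody over antibody) and of 0.634 without it (toxin over untreated).

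Cdkn1a in cells with 2 or more cycling genes over cells with 0 had a ratio of 1.90 in the toxin-plus-antibody library, 0.761 in the toxin library and 0.413 in the antibody library. Without cells that had a Foxp3 UMI it was 10.6 in the toxin-plus-antibody and 2.81 in the toxin library. Over all cycling classes, most Cdkn1a UMIs outside Foxp3 cells of these libraries lay in cells with an Il2ra UMI. Cdkn1b in cells with a Foxp3 UMI at 1000 UMIs over cells without had a ratio of 0.914 in the toxin-plus-antibody and 1.11 in the toxin library. With Foxp3 status from all UMIs both were below 1, at 0.532 and 0.710.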

How the results depend on the processing

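No paired analysis was possible because each group is 1 library and no replicate numbers are shared. No ratio has a replicate check, intervals cover counting error only, and Cdkn1a and Cdkn2a are at or near 0 outside the toxin libraries, where 1 UMI is worth 0.0358 to 0.261 CPM. Cycling, Foxp3 and receptor classes are set by a few UMIs per cell. The causes of the moves below were not tested.

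Without cells with 2 or more markers of another cell type, the values against the floor were 1.35 for Cdkn1a in untreated over naive, which gives no direction, 2.72 for Cdkn1a in antibody over untreated, and 61.2 for Cdkn1a and 72.6 for Cdkn2a in toxin over untreated, where Cdkn1b was 0.794. The cycling ratios were then 4.83 for Cdkn2c in the toxin library and 3.96, 0.544 and 3.56 for Cdkn1a, Cdkn1b and Cdkn2a in the toxin-plus-antibody library. Without cells with a cycling gene, Cdkn2c in antibody over untreated was 0.912, toxin over untreated was 0.838 for Cdkn1b, 103 for Cdkn2a and 1.96 for Cdkn2c, and toxin-plus-antibody over antibody was 8.55 for Cdkn1a. Without Foxp3 cells, toxin over untreated was 27.9, 0.802, 32.6 and 2.40 for Cdkn1a, Cdkn1b, Cdkn2a and Cdkn2c, and toxin-plus-antibody over antibody was 4.81 for Cdkn1a and 26.7 for Cdkn2a. The cycling ratios were then 7.82 for Cdkn2c in the toxin library and 10.6, 0.620 and 7.50 for Cdkn1a, Cdkn1b and Cdkn2a in the toxin-plus-antibody library.

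As a mean of single-cell CPM, toxin over untreated was 0.831 for Cdkn1b and toxin-plus-antibody over antibody 48.9 for Cdkn2a. The cycling ratios were 4.71 for Cdkn2c in the toxin library and 2.71, 0.568 and 2.80 for Cdkn1a, Cdkn1b and Cdkn2a in the toxin-plus-antibody library, and the Foxp3 ratios 1.98 for Cdkn2a in the toxin and 2.78 for Cdkn1a in the toxin-plus-antibody library. With 1 or more cycling genes as the upper class, Cdkn2c ratios were 3.10, 3.28, 5.50 and 3.11 in the toxin-plus-antibody, toxin, antibody and untreated libraries, and with 3 or more they were 4.32 in the toxin-plus-antibody and 9.78 in the antibody library. With classes set at 500 UMIs, Cdkn2a in the antibody library was 0.790, and Cdkn1b 0.559 in the toxin-plus-antibody and 0.722 in the toxin library. With Foxp3 status from all UMIs, Cdkn1a was 4.95 in the toxin-plus-antibody and Cdkn2a 5.30 in the toxin library, and among cells with 0 cycling genes 3.52 and 2.50.

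With no minimum CPM, genes past 1.5-fold higher and lower numbered 1411 and 354 in toxin-plus-antibody over toxin, 1582 and 1881 in toxin-plus-antibody over antibody, 1772 and 3673 in toxin over untreated, 1308 and 1286 in antibody over untreated and 1784 and 2284 in untreated over naive. With TMM factors, toxin over untreated had 1389 higher and 1027 lower genes and a Cdkn1b ratio of 0.767, antibody over untreated had 266 lower and toxin-plus-antibody over toxin 98 lower. Over all alternatives, ratios between libraries stayed within their interval in 63 cases, moved outside it in 44 and turned direction in 2. For cycling ratios the numbers were 57, 26 and 1, for Foxp3 ratios 21, 23 and 0, for counts of genes (within 1.5 times) 6, 14 and 0, and for shares of cells 8, 32 and 0.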

Other observations

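The naive library also held cells with a Foxp3 UMI. At 1000 UMIs, 52 naive cells had one, and Cdkn2c stood at 67.3 CPM in them (7 UMIs), against 8.12 CPM in the other naive cells, a ratio of 8.29 (3.26 to 17.7). The Cdkn1b ratio was 1.19 (0.897 to 1.56). Cdkn1a rested on 1 UMI in the Foxp3 cells.

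Of the 102 Cdkn1a UMIs of the antibody library, 25 lay in 1 cell. In the toxin-plus-antibody and toxin libraries the most Cdkn1a UMIs in 1 cell were 20 and 18, and the most Cdkn2a UMIs 20 and 19.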
